A study of Mus musculus with 6 samples.

Results

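The genes described here encode the secreted matrix proteins matrix Gla protein (Mgp), fibronectin (Fn1), SPARC, biglycan (Bgn), decorin (Dcn), periostin (Postn) and osteopontin (Spp1), and the matrix cross-linking enzymes Lox and Loxl2. They were taken by gene symbol from a deposited count table, where the 9 symbols matched 9 of 23282 rows. The table holds RNA-seq counts of TC-1, a tumour line of mouse lung origin that carries papillomavirus E6 and E7 and an activated ras gene and that the labels describe as an adenocarcinoma line. Of 6 libraries, 3 came from untreated cells and 3 from cells that had received murine recombinant interferon-gamma (IFN-gamma) at 20 ng/ml for 72 h, and all were grown in RPMI with serum and antibiotics. The labels name no genotype difference between the groups, all libraries are of this single cell line, and they do not say whether replicates were separate cultures, so spreads and p-values may be technical.

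The matrix around cells is built from collagens, fibronectin and elastic fibres, decorated with proteoglycans and tuned by matricellular proteins that signal more than they support. Mgp is a small protein whose glutamate residues are carboxylated with vitamin K, and it is known for keeping soft tissue from calcifying and for binding bone morphogenetic proteins (BMPs). Lox and Loxl2 oxidise lysines so that collagen and elastin can be cross-linked, and Bgn and Dcn are related small leucine-rich proteoglycans that bind collagen and TGF-beta. IFN-gamma is a cytokine of T and NK cells that is known to lower collagen synthesis in fibroblasts.

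Of the 9 genes, 7 were lower after IFN-gamma, 1 (Dcn) was higher, and Postn was too scarce to be tested. The changes ran from Mgp, which was left at 43.7% of its untreated level, to Dcn, which reached 152%. The genes were selected on their fold changes in this same comparison, which was known when they were listed, so their changes are described and not tested. In edgeR's quasi-likelihood fit over all 12191 genes with enough counts, 7 of the 8 tested genes lay past the adjusted p threshold of 0.05 and were lower, where 7.56% of all genes were, and 1 of 8 was higher, where 9.88% were. Without untreated replicate 3 Bgn was no longer past the threshold (log2 fold change -0.18, adjusted p = 0.0693), and without untreated replicate 1 neither was Loxl2 (-0.44, adjusted p = 0.0555). CPM of the groups did not overlap in any of the 8 genes, as in 31.8% of all genes tested. Of all called genes 56.6% were higher, against 41.6% with upper-quartile scaling and 44.5% with total counts. These scalings moved the median log2 fold change of all tested genes only from -0.01 to -0.06 and -0.05. That is less than the smallest change among the 8 genes (Bgn, -0.21), so their unchanged directions under both say little. These shares are given as background to the choice of genes and nothing is read from them.

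Levels are given as CPM, counts per 1e6 after TMM scaling of the library totals, and changes as log2 fold changes of IFN-gamma over untreated with their standard error. Library totals lay between 7302687 and 10861336 counts. Genes of the treatment response moved as the labels say, with Irf1, an interferon-induced transcription factor, at 72.9 ± 9.15 CPM untreated and 900 ± 18.8 CPM after IFN-gamma (SD, n = 3). The label names an adenocarcinoma. Of 12 epithelial markers, the keratin gene Krt19 had the highest level, at 14.1 ± 2.06 CPM untreated and 8.05 ± 1.52 CPM treated, and was called lower (adjusted p = 0.00299 in edgeR). Krt8 had 1.474 ± 1.098 and 0.825 ± 0.586 CPM and Krt7 1.29 ± 0.796 and 0.226 ± 0.215 CPM. The other 9, among them Epcam, Cdh1, Krt18, Nkx2-1 and Sftpc, had group means of at most 0.345 CPM, with Sftpb at 0 in all libraries. Of 12 fibroblast and mesenchymal markers 10 had enough counts to be tested. Their summed level, most of it Vim, lay between 10500 and 10800 CPM in untreated and between 8440 and 8840 CPM in IFN-gamma libraries. Vim alone went from 7015 ± 158 to 4979 ± 250 CPM. Of the 10 tested, 4 were lower (Vim, Col1a1, Pdgfra and Thy1) and 2 higher (Prrx1 and Twist2). Prrx1 went from 746.5 ± 22.94 to 910.4 ± 27.16 CPM, and Pdpn, not called, had 580.2 ± 20.85 and 576.2 ± 39.93 CPM. No marker of this list was at 0 in every library. Whether the changes of these markers and of the matrix genes have a common part was not tested. The untested members of the list were Fap and Tcf21. In bulk RNA, fewer cells of a type and less RNA per cell cannot be told apart. The summed level of 10 macrophage markers went from between 39.4 and 48.7 CPM to between 74.8 and 81.7 CPM, and 2 of the 3 tested were higher. Mpeg1 rose from 0.0714 ± 0.124 to 27.0 ± 1.90 CPM (adjusted p = 3.09e-21 in edgeR) and Cd68 from 6.37 ± 1.24 to 10.7 ± 2.28 CPM (adjusted p = 0.0229), while Cd14 had 37.9 ± 4.34 and 39.4 ± 6.53 CPM. The other 7, Ptprc, Adgre1, Itgam, Lyz2, Csf1r, Tyrobp and Fcer1g, had group means of at most 0.278 CPM. Whether the changes of these markers bear on those of the matrix genes was not tested. The 8 endothelial markers, with Emcn, Cldn5 and Vwf at 0 in all libraries, summed to at most 2.41 CPM in any library, and the 9 T and NK cell markers, with Cd3g, Klrb1c and Prf1 at 0, to at most 5.13 CPM. The 12 epithelial markers summed to between 17.0 and 18.7 CPM in untreated and between 8.48 and 10.2 CPM in treated libraries, and the 7 smooth muscle markers, with Myocd at 0, to between 40.3 and 45.5 and between 52.1 and 62.2 CPM.

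Promoter sequences from RefSeq (GRCm38.p6) were at hand for Spp1, Sparc, Bgn and Postn. The 250 bases before the annotated start are shown for Spp1, the tested gene of these with the most counts, and for Bgn, the gene that changed least, because they differ in the motifs found and in base composition. Capitals mark matches to the motifs searched on both strands, which were the interferon-gamma activated site (GAS, TTCNNNGAA), the interferon-stimulated response element core (ISRE, a GAAA followed by any 2 bases and another GAAA), the AP-1 site TGANTCA, the TATA box TATAAA, the CCAAT box and a SMAD-binding palindrome searched as GTCTAGAC. The Spp1 stretch is on the plus strand at chr5:104434861-104435110 and that of Bgn on the plus strand at chrX:73483351-73483600.
Spp1: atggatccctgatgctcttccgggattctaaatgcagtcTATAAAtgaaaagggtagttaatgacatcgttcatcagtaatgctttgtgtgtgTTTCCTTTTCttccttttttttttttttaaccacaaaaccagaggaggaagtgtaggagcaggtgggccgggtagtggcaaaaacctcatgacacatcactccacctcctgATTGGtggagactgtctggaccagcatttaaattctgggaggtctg
Bgn: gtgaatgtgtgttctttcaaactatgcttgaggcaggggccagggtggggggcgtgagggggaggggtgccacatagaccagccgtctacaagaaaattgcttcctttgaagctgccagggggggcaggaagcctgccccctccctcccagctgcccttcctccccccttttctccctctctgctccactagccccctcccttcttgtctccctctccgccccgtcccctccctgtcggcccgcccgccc
The Spp1 stretch held an ISRE core match on the minus strand that begins 157 bases before the start, a TATAAA 211 bases before it and an inverted CCAAT box 46 bases before it, none of which overlap. No motif of the set was found in the Bgn stretch, whose GC content was 64.4% against 43.6% for Spp1. The Sparc window, not shown, held no match either, nor did the window before a further annotated start of Spp1. In GENCODE vM21 the former overlaps an exon of Sparc and the latter one of Gm42793, so both hold annotated exon sequence. Of the Postn windows, that before the gene start held none and another held a TATAAA. Whether the motifs bear on the changes was not tested. Of 32851 promoter entries of the same length, 2.98% held the ISRE core, 7.02% the GAS motif, 6.75% the AP-1 site, 12.4% TATAAA, 33.8% CCAAT and 0.167% the SMAD palindrome. A match describes letters, not a bound site, and a window without one says only that these letters are not in it.

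Mgp had 2628, 2584 and 2588 CPM in untreated replicates 1, 2 and 3 and 1148, 1132 and 1129 CPM in the IFN-gamma replicates. All treated libraries lay far below all untreated ones, and the replicates of each group were within a coefficient of variation of 0.933% and 0.887%. The log2 fold change was -1.19 ± 0.05, the 71st lowest of 12191 genes. Over 13 alternative settings it lay between -1.25 and -1.19. Mgp took between 0.2605% and 0.2677% of all counts in untreated and between 0.1102% and 0.1135% in treated libraries.

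**Figure D1:**
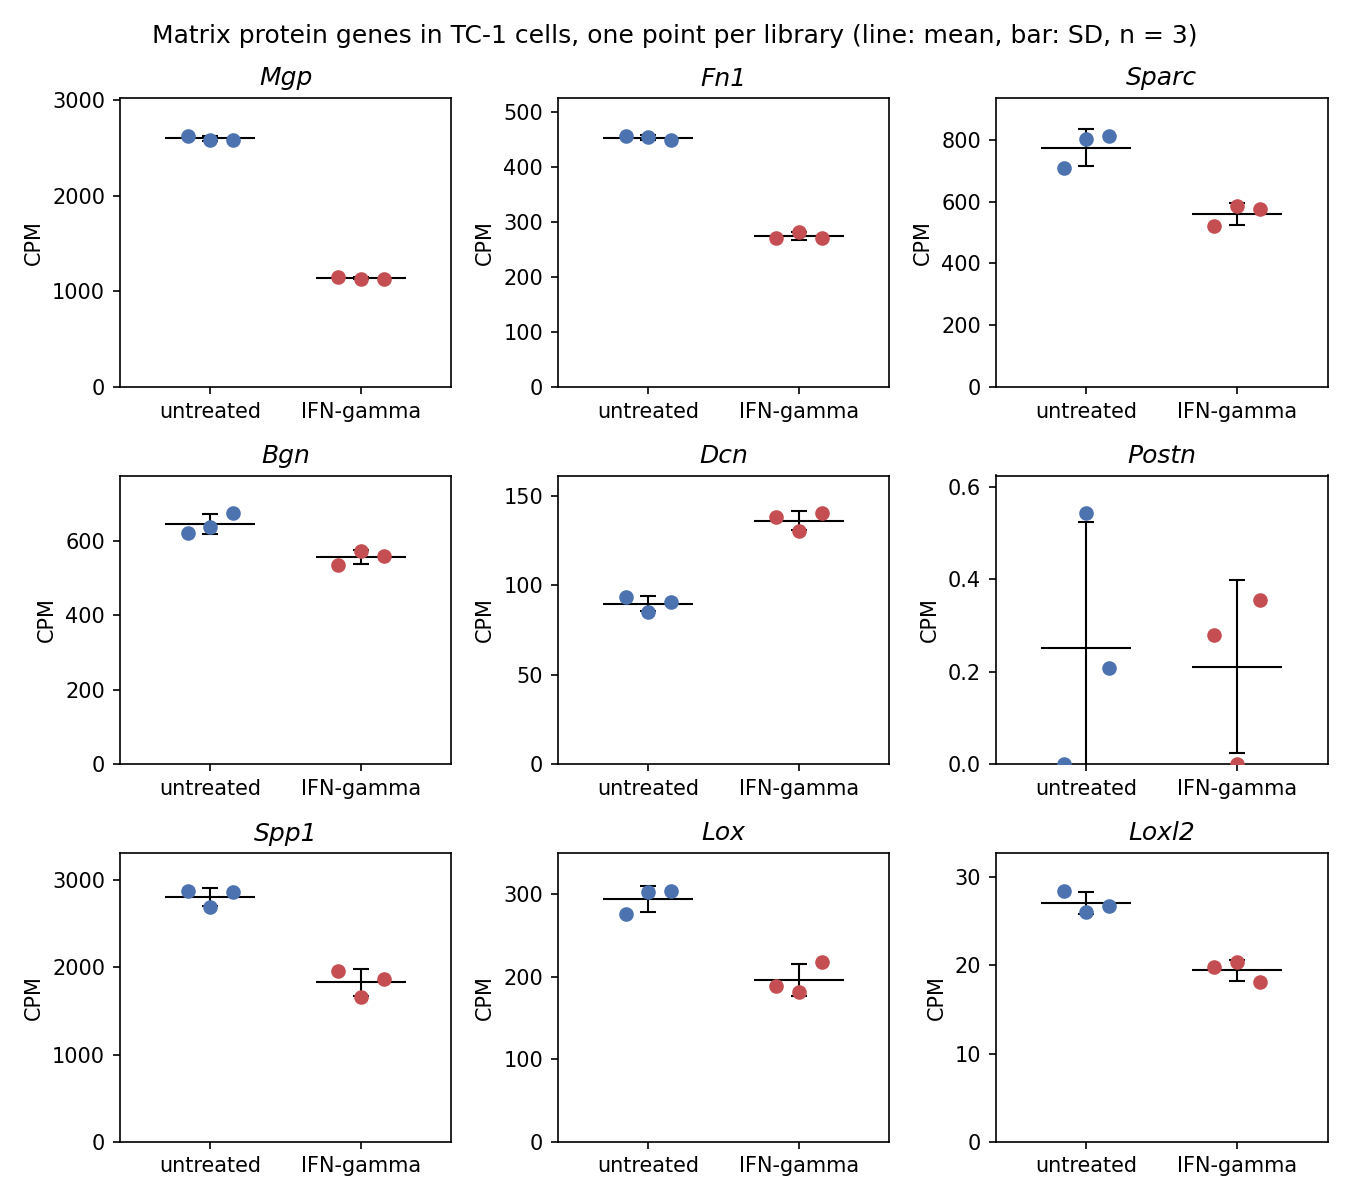
Level of each of the 9 matrix protein genes in CPM (linear axes from 0) in the 3 untreated and 3 IFN-gamma libraries, 1 point per library, with the group mean (line) and SD (bar). The groups are apart in every panel but that of Postn, where no library exceeds 0.543 CPM, and Dcn is the gene that lies higher after treatment.

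Among the matricellular genes, Spp1, whose product osteopontin is a phosphorylated ligand of integrins and CD44, had 2874, 2687 and 2858 CPM in untreated replicates and 1950, 1656 and 1869 CPM after IFN-gamma. All treated values were lower, with IFN-gamma replicate 2 the lowest, and the log2 fold change was -0.62 ± 0.05. Sparc, which encodes a collagen-binding glycoprotein also called osteonectin, had 708, 804 and 814 CPM untreated and 520, 586 and 575 CPM treated. Replicate 1 was the lowest of its group in both conditions, the groups did not overlap, and the log2 fold change was -0.47 ± 0.06. Postn, whose product periostin binds integrins and supports collagen assembly, had 0, 4 and 2 counts in untreated and 3, 0 and 3 counts in treated libraries. Its ratio of treated to untreated level was 0.934 with an exact (Clopper-Pearson) 95% interval of 0.25 to 3.49, which covers counting error only, so a change within that range was not detectable at this depth.

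Fn1, which encodes the fibril-forming adhesion protein fibronectin, had 457, 455 and 449 CPM untreated and 270, 282 and 271 CPM treated. It was the tested gene with the lowest fold change after Mgp, at -0.73 ± 0.06, and its untreated replicates were as close to each other as those of Mgp, with a coefficient of variation of 0.882%. An antisense annotation overlaps Fn1, Lox and Loxl2 and another gene on the same strand overlaps Spp1 in GENCODE vM21. Loxl2 is also overlapped by the microRNA gene Mir6950 on the same strand and by Gm37513 on the other. The labels do not say whether counting used the strand, so reads of such partners cannot be told apart. The Fn1 partner Apol7d had at most 0.931 CPM in any library.

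The related proteoglycan genes Bgn and Dcn went opposite ways. Bgn had 622, 636 and 673 CPM untreated and 535, 572 and 560 CPM treated, with a log2 fold change of -0.21 ± 0.06, the smallest of the tested genes. Dcn had 93.2, 85.0 and 90.5 CPM untreated and 138, 130 and 140 CPM treated, a log2 fold change of 0.60 ± 0.08. No treated library of Dcn overlapped an untreated one. Over the 13 alternatives Bgn stayed between -0.26 and -0.18 and Dcn between 0.55 and 0.63.

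Of the cross-linking enzymes, Lox had 277, 303 and 305 CPM untreated and 189, 182 and 219 CPM treated, a log2 fold change of -0.59 ± 0.07. Loxl2, which oxidises lysines of basement membrane collagen among other substrates, had 28.5, 26.1 and 26.8 CPM untreated and 19.8, 20.4 and 18.1 CPM treated. Its log2 fold change was -0.48 ± 0.14, with the widest standard error of the 8 genes. The groups of both genes were apart.

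**Figure D2:**
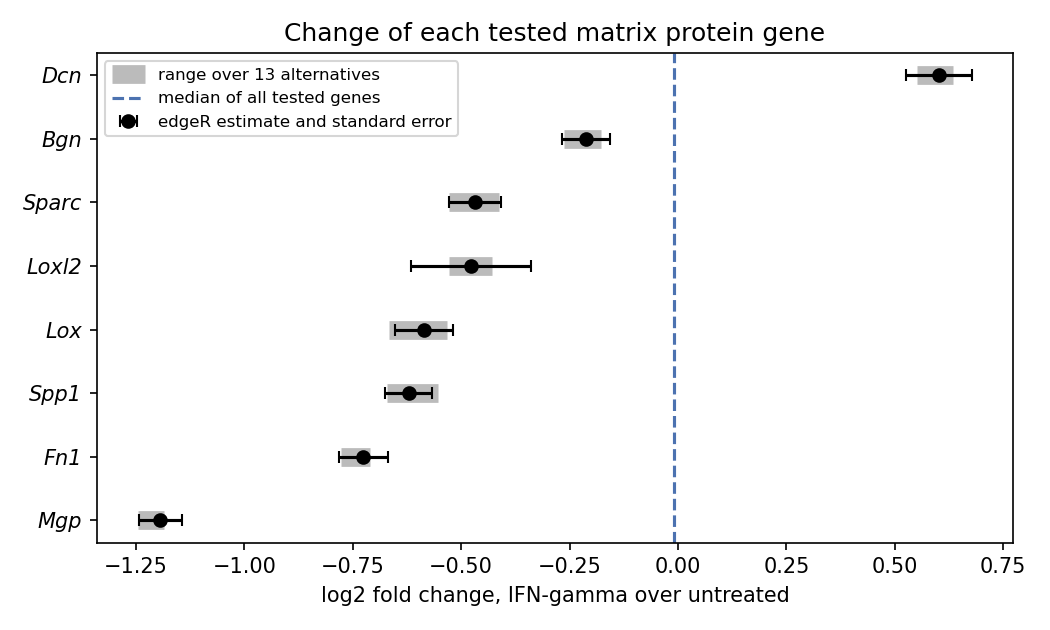
Log2 fold change (IFN-gamma over untreated) of the 8 tested genes, with edgeR's standard error (black) and the range over 13 alternative settings (grey); the dashed line is the median of all tested genes at -0.01. Mgp lies lowest at -1.19 and Dcn is on the other side of the line at 0.60.

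Ratios of counts within a library do not depend on how libraries are scaled. There were 0.914, 0.962 and 0.905 Mgp counts per Spp1 count in untreated replicates and 0.589, 0.684 and 0.604 after IFN-gamma, so the ratio was lower in every treated library than in any untreated one. The ratio of Mgp to Fn1 counts went from 5.73 ± 0.0422 to 4.14 ± 0.12 (SD, n = 3). The ratio of Bgn to Dcn counts was 6.67, 7.48 and 7.44 without and 3.88, 4.40 and 3.99 with treatment. In contrast, the ratio of Lox to Loxl2 counts overlapped between the groups, at 10.9 ± 1.04 and 10.2 ± 1.66, as did that of Sparc to Spp1, at 0.277 ± 0.0274 and 0.309 ± 0.0436. All 9 genes together held 0.780 ± 0.0239% of the counts of untreated and 0.463 ± 0.0167% of those of treated libraries.

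**Figure D3:**
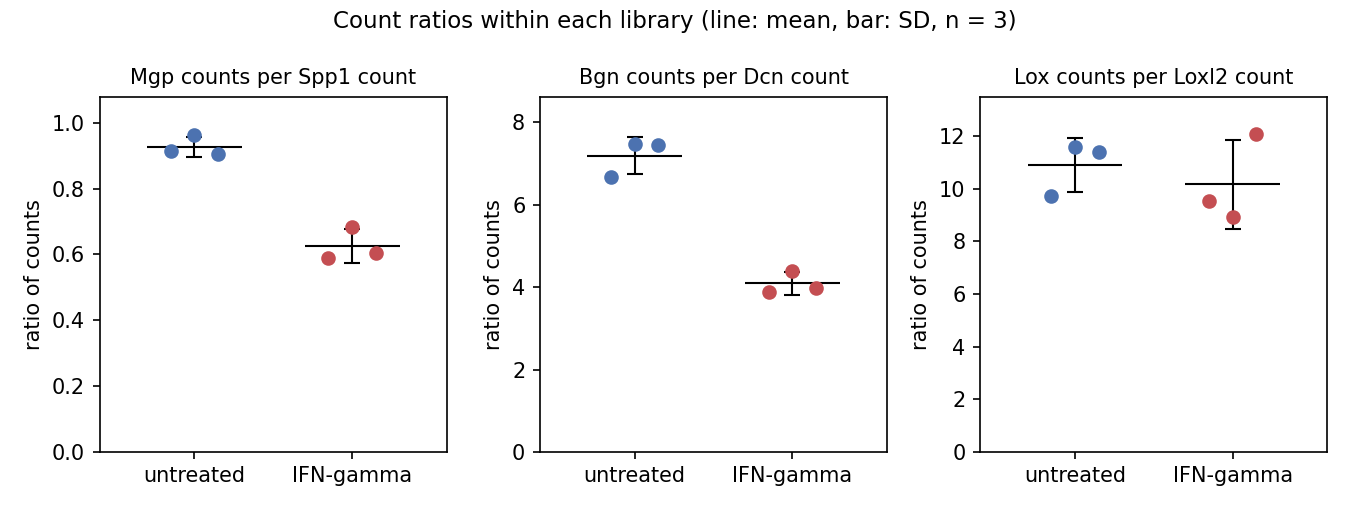
Ratio of the counts of 2 genes within each library (axes from 0), with the group mean (line) and SD (bar) over 3 libraries. Mgp per Spp1 and Bgn per Dcn are lower in every treated library, and Lox per Loxl2 overlaps between the groups.

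To compare levels between genes, CPM were divided by the length in kb of the longest protein-coding transcript in GENCODE vM21, a scale that does not apply if the named kit that reads 3' ends gave these counts. On this scale the untreated order was Mgp (4214 ± 39.3), Spp1 (1862 ± 68.7), Sparc (337 ± 25.5), Bgn (266 ± 11.03), Lox (62.2 ± 3.32), Fn1 (54.6 ± 0.481), Dcn (51.0 ± 2.37), Loxl2 (5.10 ± 0.232) and Postn (0.0783 ± 0.0855). No neighbours in this order overlapped between libraries. After IFN-gamma, Mgp (1842 ± 16.3) stayed above Spp1 (1211 ± 101). Sparc (244 ± 15.3) and Bgn (230 ± 7.77) overlapped, and Dcn (77.4 ± 3.02) lay above both Lox (41.5 ± 4.10) and Fn1 (33.0 ± 0.811). On the CPM scale, without length, Spp1 was above Mgp in both groups.

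The 5 genes whose profiles lay nearest to that of Mgp, by the root mean square distance between centred log2 CPM values over the 6 libraries among 8989 other genes with a mean of at least 10 CPM, were Nptx1, Tenm3, Ncam1, Slc17a6 and Podn. Their distances ran from 0.0731 to 0.142 on the log2 scale. Nptx1, which encodes a neuronal pentraxin, had 86.0 ± 2.44 CPM untreated and 35.6 ± 2.78 treated, and the cell adhesion gene Ncam1 417 ± 18.9 and 213 ± 10.9. Podn, which encodes podocan, a further small leucine-rich proteoglycan, had 38.4 ± 4.80 and 18.8 ± 1.24 CPM. Of the matrix genes described here Fn1 came nearest, at place 40 with a distance of 0.236, followed by Spp1 at place 79. Ranked by Pearson's correlation over the same 6 libraries, which ignores the size of a change, none of these 5 was among the nearest 5 (0 shared). Fn1 was then at place 3 with r = 0.998. Both measures mostly reflect the difference between the groups.

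**Figure D4:**
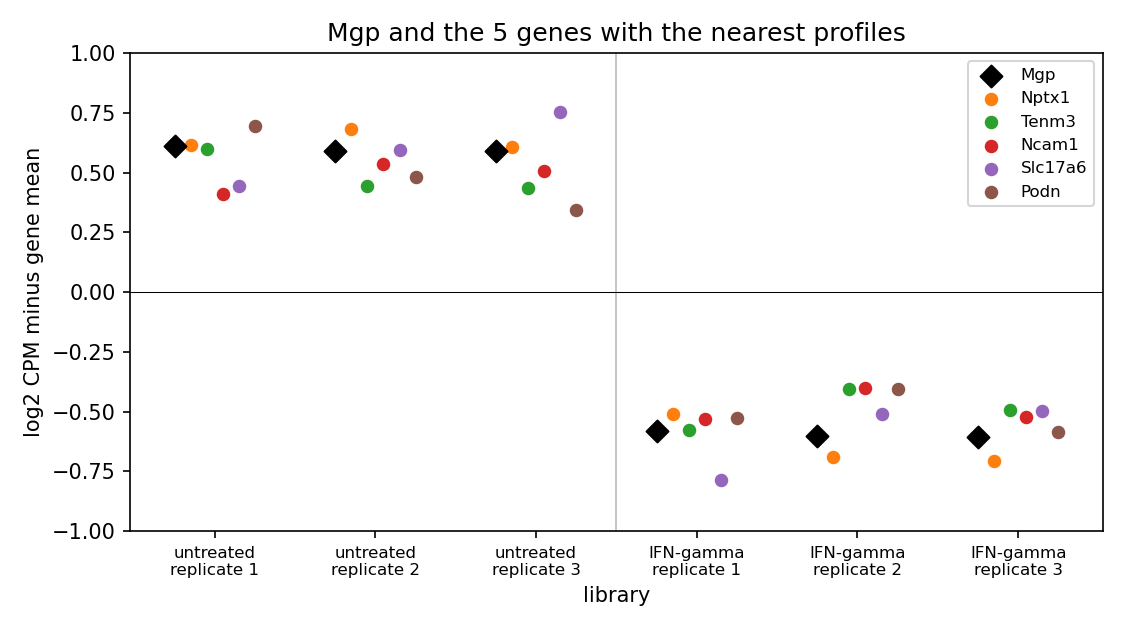
Log2 CPM minus the gene's mean over the 6 libraries for Mgp (diamonds) and the 5 genes nearest to it (circles), by library; points are shifted sideways to be seen. All 6 genes lie above 0 in the untreated and below 0 in the treated libraries.

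Genes that act on or with these proteins were taken from 11 lists, and each list's count is set beside the 7.56% of all genes that were lower and the 9.88% that were higher. The median log2 fold change of all tested genes was -0.01. Adjusted p-values are from edgeR over all genes.

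Mgp is made active by vitamin K-dependent carboxylation. Of 12 tested genes of vitamin K carboxylation and Gla proteins, 2 were lower and 1 higher, with a median of -0.10. The carboxylase gene Ggcx had -0.09 ± 0.21 (adjusted p = 0.824), the vitamin K epoxide reductase gene Vkorc1 fell by 0.30 ± 0.11 (adjusted p = 0.0492) and Pros1, which encodes the coagulation regulator protein S, by 0.23 ± 0.08 (adjusted p = 0.036). Aifm2, a quinone reductase, rose by 0.55 ± 0.19 (adjusted p = 0.0341). These 3 calls were unsteady: that of Vkorc1 was lost in 10 of 13 alternatives (adjusted p from 0.05004 to 0.181), among them leaving out any library but IFN-gamma replicate 3. The Aifm2 call was lost in 6 (0.0514 to 0.25), which include leaving out untreated replicate 2, untreated replicate 3 and IFN-gamma replicate 2. The Pros1 call was lost in 4 (0.0654 to 0.225), which are untreated replicates 2 and 3 and IFN-gamma replicates 1 and 3 left out in turn.

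Of 9 tested genes of mineralization and phosphate handling, 2 were lower and 1 higher (median -0.13). Ank, whose product exports the mineralization inhibitor pyrophosphate or its precursor ATP, had 130, 126 and 125 CPM untreated and 70.1, 64.0 and 69.5 CPM treated, and fell by 0.90 ± 0.08 on the log2 scale (adjusted p = 3.45e-12). Alpl, the phosphatase that breaks pyrophosphate down, was scarce at 0.221 ± 0.0892 CPM untreated and 1.88 ± 0.434 CPM treated, and its 3 treated libraries all lay above the untreated ones (adjusted p = 0.00208). The phosphate transporter gene Slc20a1 fell by 0.20 ± 0.07 (adjusted p = 0.0432) and missed the threshold in 7 of 13 alternatives (adjusted p from 0.0537 to 0.174), among them leaving out any library but IFN-gamma replicate 3. Fam20c, the kinase of secreted proteins such as osteopontin, had 0.26 ± 0.17 (adjusted p = 0.338).

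Among 19 tested BMP ligands, receptors and antagonists, 4 were higher and 1 lower (median 0.08). The ligand gene Bmp2 rose by 0.83 ± 0.06 from 260 ± 11.02 to 461 ± 27.7 CPM (adjusted p = 1.54e-14). The BMP antagonist gene Grem1 rose by 0.74 ± 0.06 to 526 ± 43.7 CPM (adjusted p = 1.41e-12), the follistatin-like gene Fstl1 by 0.72 ± 0.06 (adjusted p = 6.20e-12) and the BMP-binding gene Bmper by 0.92 ± 0.14 (adjusted p = 1.65e-06). The receptor gene Bmpr2 fell by 0.26 ± 0.09 (adjusted p = 0.0361) and missed the threshold in 5 of 13 alternatives (adjusted p from 0.0501 to 0.205), among them leaving out any library but IFN-gamma replicate 2. Of 13 tested TGF-beta ligands, receptors and SMADs, 1 was higher and 0 were lower in edgeR (median -0.05). DESeq2, limma and an unadjusted edgeR p under 0.05 also gave 0 lower.

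Of 17 tested proteoglycan core protein genes other than Bgn and Dcn, 7 fell and 1 rose, with a median of -0.46. Hspg2, which encodes perlecan of basement membranes, fell by 0.57 ± 0.07 from 178 ± 10.3 to 121 ± 7.05 CPM (adjusted p = 3.98e-08), and Podn by 1.03 ± 0.13 (adjusted p = 7.27e-08). Agrn, which encodes the heparan sulfate proteoglycan agrin, rose by 0.97 ± 0.09 from 51.1 ± 5.19 to 100 ± 9.30 CPM (adjusted p = 4.32e-11). Without untreated replicate 3 the count of lower genes was 3, and with DESeq2 it was 4. The enzymes that build chondroitin and dermatan sulfate chains on Bgn and Dcn gave 1 higher and 0 lower of 16 tested (median -0.03). The 1 was Dse, the dermatan sulfate epimerase, at 0.32 ± 0.11 (adjusted p = 0.0447), a call lost in 7 alternatives (adjusted p from 0.0598 to 0.144), which include leaving out untreated replicates 2 and 3 and IFN-gamma replicates 2 and 3 in turn. Without untreated replicate 3 or IFN-gamma replicate 1, 1 enzyme was lower. At an unadjusted edgeR p under 0.05, 2 were lower, and DESeq2 and limma gave 0 lower.

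Of 23 tested genes of lysyl oxidases and collagen processing, 7 were lower and 1 higher (median -0.20). The lysyl hydroxylase genes Plod2 and Plod1, whose products prepare collagen lysines for cross-linking, fell by 0.52 ± 0.07 (adjusted p = 2.91e-07) and 0.41 ± 0.09 (adjusted p = 0.00122). Of the related oxidase genes, Loxl3 rose by 0.29 ± 0.07 from 117 ± 6.43 to 143 ± 3.92 CPM (adjusted p = 0.00261), Loxl1 had 0.20 ± 0.07 (adjusted p = 0.0623) and Loxl4 -0.02 ± 0.15. Among the lower genes, the call of Bmp1 was lost in 9 of 13 alternatives (adjusted p from 0.052 to 0.135) and that of Colgalt1 in 5 (0.0505 to 0.202). Those of P4hb and P4ha2 were lost in 2 and 1. Without untreated replicate 2 the count of lower genes was 4, without untreated replicate 3 it was 3, and with DESeq2 it was 5. Without IFN-gamma replicate 3 the count of higher genes was 2, as it was with the replicate number as a block.

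Elastic fibre and microfibril genes were the list with the highest share called among the 11, with 9 of 15 tested lower and 0 higher (60.0%, median -0.42). Fbn2, which encodes the microfibril protein fibrillin-2, fell by 0.75 ± 0.06 from 507 ± 12.5 to 301 ± 13.7 CPM (adjusted p = 6.65e-14), and the fibulin gene Fbln2 by 0.77 ± 0.07 (adjusted p = 7.65e-12). Fbn1 had -0.02 ± 0.17. At an unadjusted edgeR p under 0.05 there were also 0 higher, as by DESeq2 and limma. Without untreated replicate 2, 1 gene was higher. Of 10 tested basement membrane genes, 5 were lower and 0 higher (median -0.25), led by the laminin chain genes Lamb1 (-0.44 ± 0.06, adjusted p = 4.22e-07) and Lamb2 (-0.49 ± 0.10, adjusted p = 0.000553). By DESeq2, limma and at an unadjusted edgeR p under 0.05, 0 were higher too. The other lower genes were Lama4, Lamc1 and Nid2, whose calls were lost in 8, 7 and 2 of the 13 alternatives (adjusted p from 0.0504 to 0.312). The count of lower basement membrane genes was 2 without untreated replicate 1 or IFN-gamma replicate 2, and 3 without untreated replicate 3 or IFN-gamma replicate 1. Hspg2, which fell, and Agrn, which rose, were counted with the proteoglycans and not in this list, so its counts depend on that choice.

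The 12 tested matricellular genes besides Spp1, Sparc and Postn were divided, with 3 lower and 2 higher (median -0.33). Thbs1, which encodes the TGF-beta-activating thrombospondin-1, rose by 1.03 ± 0.07 from 182 ± 14.02 to 370 ± 29.4 CPM (adjusted p = 4.55e-16), while its relative Thbs2 fell by 0.44 ± 0.06 from 373 ± 7.76 to 276 ± 7.91 CPM (adjusted p = 1.89e-07). The growth factor-binding gene Ctgf rose by 0.82 ± 0.13 (adjusted p = 3.07e-05), the tenascin gene Tnc fell by 0.48 ± 0.07 (adjusted p = 1.55e-06) and Ecm1 by 0.45 ± 0.07 (adjusted p = 4.42e-06). Of 10 tested matrix receptors, 3 were higher and 1 lower (median 0.06). Cd44, a receptor for hyaluronan and osteopontin, rose by 0.21 ± 0.05 from 717 ± 15.2 to 831 ± 19.2 CPM (adjusted p = 0.00283), Itga3 by 0.44 ± 0.11 (adjusted p = 0.00352) and the collagen receptor gene Ddr1 by 0.36 ± 0.10. The integrin gene Itgb5 fell by 0.27 ± 0.10 (adjusted p = 0.0398) and missed the threshold in 6 of 13 alternatives (adjusted p from 0.0559 to 0.183), among them leaving out any library but IFN-gamma replicate 3. That of Ddr1 was lost without untreated replicate 2 or IFN-gamma replicate 1 (adjusted p 0.0727 and 0.0721).

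**Figure D5:**
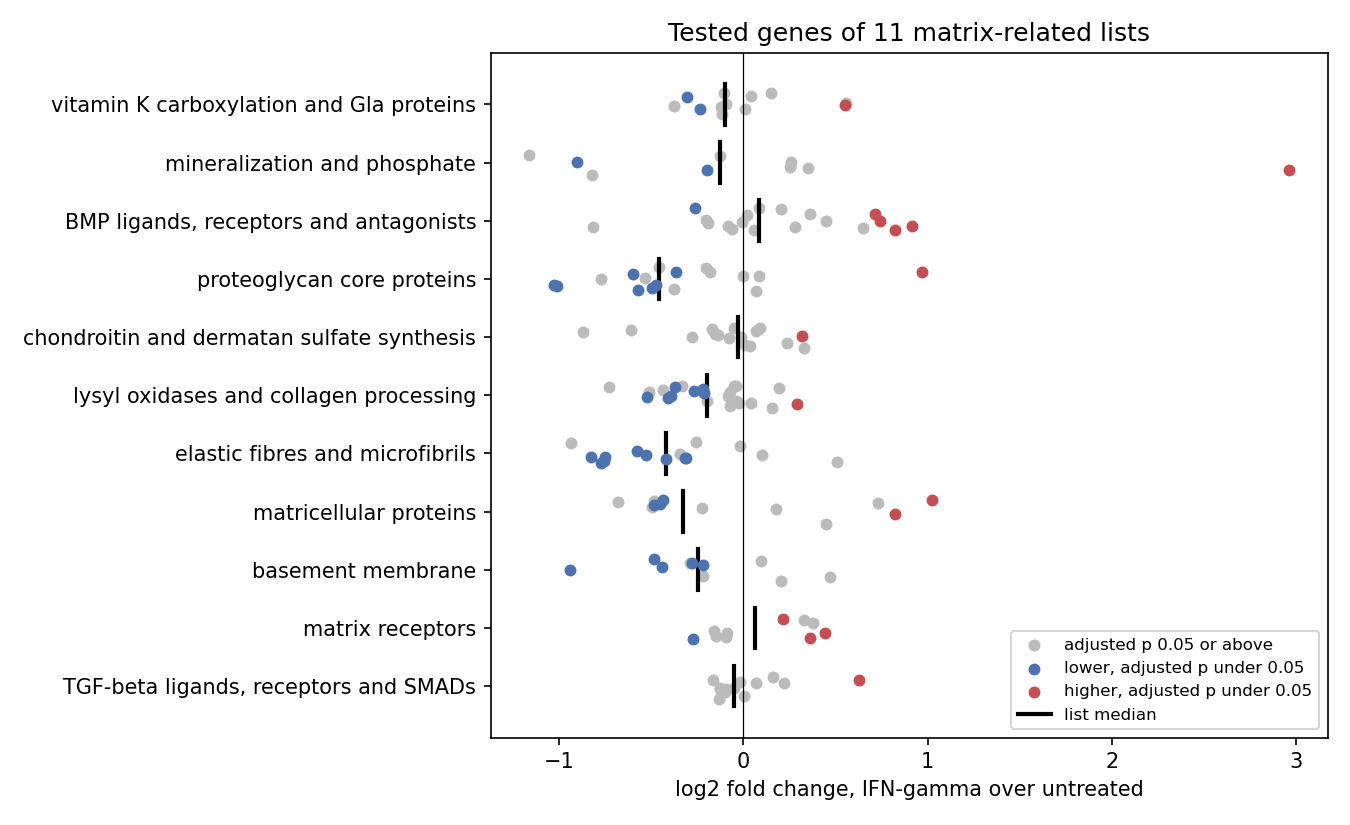
Log2 fold change (IFN-gamma over untreated) of each tested gene in 11 lists, coloured by edgeR call (adjusted p under 0.05) and spread vertically within a list to be seen; black bars are list medians. The medians of proteoglycan core protein genes (-0.46) and elastic fibre genes (-0.42) are the lowest, and that of BMP genes the highest at 0.08.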

How the data were processed

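The authors deposited 1 table with a column of raw counts for each library, whole numbers with no normalization per the file headers, and a column of log2 normalized values, which came within 0.0631 of log2 of edgeR's pseudo-counts plus 1 computed here. The submitters' processing notes name Bowtie2 and edgeR without versions and hg19, a human build, for these mouse samples, so no gene coordinates are given for the counts. TRIzol was used to isolate RNA, per the labels' protocols, and both a stranded poly(A) kit and a kit reading 3' ends are named. Which of them gave these counts is not given in the sources used here.

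The fit used edgeR version 4.0.16 (R version 4.3.3) on the counts, with the filterByExpr filter, TMM scaling, a robust quasi-likelihood model without covariates and Benjamini-Hochberg adjustment over 12191 of 23282 rows and a threshold of 0.05. The biological coefficient of variation was 0.0871. No pair of libraries agreed within counting noise (chi-square of at least 4.46 per degree of freedom). log2 CPM for profiles used a prior count of 2. The alternatives were other scaling factors, no filter, DESeq2 1.42.0, limma 3.58.1 on the deposited log2 values, the replicate number as a block, and leaving out each library.

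The matrix genes and the lists were chosen with earlier results of these data known. Besides the matrix genes, the 2 genes of smallest adjusted p in each direction of a list were named by rule (in a list with no call, the gene with the highest CPM), with Irf1 as a check of the treatment label. Some genes that the rule names are not reported here. Ggcx, Fam20c, Fstl1, Bmper, Loxl1, Loxl4, Bmp1, Colgalt1, P4hb, P4ha2, Fbn1, Lama4, Lamc1, Nid2, Ecm1, Ddr1, Fst and the marker genes given with values were named after their values were seen.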

Additional observations from a re-analysis of the deposited data

How the results depend on the processing

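The direction of all 8 tested matrix genes was the same under all 13 alternatives, and the count of lower ones was 7, or 6 to 7 when 1 library was left out. Of all genes, 987 to 1298 genes were higher and 654 to 1014 lower when 1 library was left out. Upper-quartile scaling gave 957 higher and 1343 lower, or 41.6% higher among the calls. Scaling by totals gave 991 and 1238 (44.5%), where TMM gave 1204 and 922 (56.6%). The replicate number as a block gave 1252 and 974. The deviations of same-numbered libraries from their group means had correlations of 0.022, 0.076 and -0.001 over 8990 genes. Not every library correlated best with its own number. With so few libraries, these values cannot decide whether same-numbered libraries share a batch, and the labels do not say. The block changed the list counts to 1 lower vitamin K gene, 2 higher collagen processing genes, 6 lower collagen processing genes, 1 higher elastic fibre gene, 3 higher and 4 lower matricellular genes and 2 lower receptors. The 66 genes whose fold change was followed were all past the threshold in the edgeR fit used here, so none could gain a call. Of their 858 alternative values, 102 lost a call and 0 changed direction.

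Of vitamin K genes, 0 were higher under upper-quartile scaling, total-count scaling or DESeq2, and 1 was lower with RLE factors, no filter, DESeq2 or limma. Leaving out 1 library gave 0 to 1 higher and 0 to 1 lower. Mineralization genes had 1 lower with no filter or limma, and 1 to 3 without 1 library. BMP genes had 2 lower under upper-quartile or total-count scaling, and 0 to 1 without 1 library. Proteoglycan genes had 4 lower with DESeq2, and 3 to 7 without 1 library. Chondroitin sulfate enzymes had 0 higher under upper-quartile scaling, total-count scaling or DESeq2, and 0 to 1 higher and 0 to 1 lower without 1 library. Collagen processing genes had 1 to 2 higher and 3 to 7 lower, and elastic fibre genes 0 to 1 higher, without 1 library, and 1 elastic fibre gene was higher with no filter. Basement membrane genes had 3 lower with DESeq2 or limma and 2 to 5 without 1 library. Receptors had 3 lower with upper-quartile factors, 2 with total counts alone, 0 with no filter, and 0 to 1 without 1 library. The cause of these moves was not tested, except that leaving out a library reduces the samples. Depth limits Postn.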

Other observations

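Fst, which encodes follistatin, an antagonist of activins and some BMPs, did not pass the threshold with all 6 libraries (log2 fold change 0.36 ± 0.35, adjusted p = 0.597 in edgeR). It had 1132, 1042 and 1074 CPM in untreated replicates, and 1823, 781 and 1570 CPM in IFN-gamma replicates, so that 2 treated libraries lay above and IFN-gamma replicate 2 below all untreated ones. Without that library Fst was higher by 0.65 ± 0.06 (adjusted p = 5.41e-15 in edgeR). The library to leave out was picked by its Fst value, so this adjusted p describes the remaining libraries and is no test of a change. IFN-gamma replicate 2 also held the lowest treated value of Spp1, at 1656 CPM against 1950 and 1869 CPM, and the lowest of Lox and Dcn. It held the highest treated value of Fn1, Sparc, Bgn and Loxl2, so its matrix gene values did not lie to one side.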
